A study of Mus musculus with 4 samples.

Results

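Glo1, Hagh and Park7 were followed across 4 arrays of mouse prefrontal cortex. They were chosen by name: every non-control probe whose gene name in the scanner files was one of these 3 was taken, which gave 6 of 56605 probes. Glo1 had 3 probes, Hagh had 1 and Park7 had 2, and all 6 were well above background on every array. The arrays crossed diet with genotype in 3-month-old B6J mice. The 4 groups were wild-type mice on a starch diet (the control group), wild-type mice on a sucrose diet, Glo1 heterozygous mice on the starch diet and Glo1 heterozygous mice on the sucrose diet, each diet given for about 70 days from postnatal day 21. Each group was 1 pool of RNA from 3 samples on 1 array, so the spread between mice was not measured and a difference between arrays has no replicate error. How the Glo1 allele was disrupted is not given in the sources used here, and the Glo1 probes may lie inside or outside the disrupted part.

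Methylglyoxal is a reactive dicarbonyl that forms mainly as a by-product of glycolysis and modifies proteins and nucleic acids. The glyoxalase system removes it in successive steps that use glutathione. Glyoxalase 1, the product of Glo1, isomerises the adduct of methylglyoxal and glutathione to S-D-lactoylglutathione, and glyoxalase 2, the product of Hagh, hydrolyses that thioester to D-lactate and returns the glutathione. Park7 encodes DJ-1, a redox-sensitive protein whose loss causes recessive Parkinson disease in humans and for which a glutathione-independent glyoxalase or deglycase activity has been described and debated.

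The probes are shown to make plain which stretch of each transcript was measured. Coordinates are those of the files, on build mm9. The Glo1 probes lie on the minus strand of chromosome 17, at 30729951 to 30730010 (A_51_P480982), 30730503 to 30730562 (A_55_P2728133) and 30731083 to 30731142 (A_55_P2502721). The files list the first of them for both RefSeq transcript variants of Glo1, the next for variant 1 alone and the last for variant 2 alone. The last is printed whole, with its terminal stop codon in capitals, because it reads the end of the coding sequence; of the other 2 Glo1 probes and of the Hagh probe the first 30 of 60 bases are given.
Glo1 A_55_P2502721: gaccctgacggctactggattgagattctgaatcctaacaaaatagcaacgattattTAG
Glo1 A_51_P480982: attctcagaggtgatttgaagactcaacaa
Glo1 A_55_P2728133: ctgagagcaattcggaatcatgctgacaag
The Hagh probe A_51_P127469 lies on the plus strand of chromosome 17, at 25001260 to 25001319, which is 5728691 bases from the brightest Glo1 probe.
Hagh A_51_P127469: gacttctaaccgactggcctgctgctaatg
The Park7 probes lie on the minus strand of chromosome 4, at 150275119 to 150275178 (A_55_P1981550) and 150271406 to 150271465 (A_55_P2141429). The former is printed whole, and the latter up to its stop codon, in capitals, the first 46 of its 60 bases.
Park7 A_55_P1981550: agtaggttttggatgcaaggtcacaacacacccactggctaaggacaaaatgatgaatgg
Park7 A_55_P2141429: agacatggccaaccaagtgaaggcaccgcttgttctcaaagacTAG

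Levels below are processed signals as multiples of the 75th percentile of the non-control spots of the same array, and changes are log2 differences between 2 arrays. The 75th percentiles ran from 1780 to 1929 intensity units, between 77.6% and 80.2% of non-control spots were well above background, and no spot was saturated. Of the 300 probes printed 10 times, 291 lay in the brightest quartile of the 42094 probes well above background on all arrays. From their spots, the SD of a difference between single spots on a pair of arrays was 0.07 there, and 0.12 in the next quartile, where 5 such probes lay. This SD covers noise between spots alone, and neither animals nor pooling. The scanner software's own error was 10% of the signal for each member spot, or 0.14 on the log2 scale.

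Each of the 3 Glo1 probes gave a lower signal in heterozygous than in wild-type mice under either diet, and each gave a higher signal on sucrose in either genotype. The level of the brightest probe, A_51_P480982, was 4.04 (starch) and 5.53 (sucrose) in wild types, against 2.74 (starch) and 3.04 (sucrose) in heterozygotes. The level of A_55_P2502721 was 1.47, 1.99, 0.973 and 1.12 in the same order. The level of A_55_P2728133 was 0.968, 1.35, 0.659 and 0.741 in that order. The order of the arrays was thus the same for all 3 probes: wild-type sucrose was highest, followed by wild-type starch, heterozygous sucrose and heterozygous starch. Both wild-type arrays lay above both heterozygous arrays, which held for 21.1% of all probes and 28.1% of the brightest quartile.

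**Figure D1:**
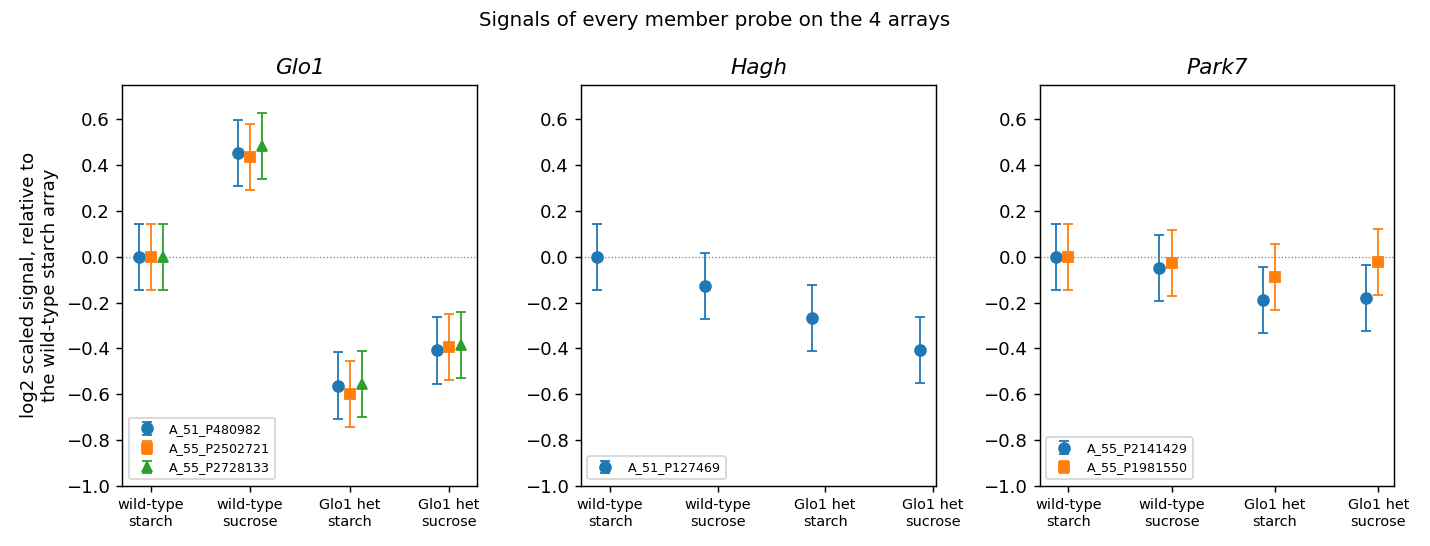
Log2 scaled signal of the 6 probes of Glo1 (3), Hagh (1) and Park7 (2) on the 4 arrays, each relative to its own value on the wild-type starch array; points are single arrays (1 pool a group), offset sideways by probe, and bars are the scanner software's error of about 0.14. The Glo1 probes follow one another, with a span of about 1.02 to 1.04 between the wild-type sucrose and heterozygous starch arrays, while Hagh spans 0.41 and Park7 0.09 and 0.19.

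On starch, the heterozygous signal of Glo1 was lower by a log2 change of -0.56, -0.60 and -0.56 for A_51_P480982, A_55_P2502721 and A_55_P2728133. On sucrose the changes were -0.86, -0.83 and -0.87, and the heterozygous signals were 55.0%, 56.3% and 54.8% of the wild-type ones. The 3 probes thus differed from each other by at most 0.04 on either diet, less than the SD of repeated spots. The probe listed for variant 1 alone and the probe listed for variant 2 alone gave nearly the same changes. All 3 probes were lower by more than 0.32 on the log2 scale, the size taken here as a clear change, on both diets, as were 1.38% of all probes and 0.171% of the brightest quartile. On starch alone 9.88% of all probes and 2.63% of the brightest quartile were lower by that much, and on sucrose alone 6.01% and 1.74%. Of the 10524 probes of the brightest quartile, 49 others were as low as A_51_P480982 on starch and 8 others on sucrose. No Glo1 probe was 2-fold lower in either comparison, as 0.508% of all probes were on starch and 0.349% on sucrose.

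Glo1 was higher on sucrose by 0.45 in wild-type mice for the brightest probe and by 0.43 and 0.48 for the other probes, and 10.5% of all probes and 3.77% of the brightest quartile were higher by 0.32 or more in that comparison. In heterozygous mice Glo1 was higher on sucrose by 0.15, 0.21 and 0.17 for A_51_P480982, A_55_P2502721 and A_55_P2728133, and none of the 3 reached 0.32, which 8.45% of all probes and 1.69% of the brightest quartile did. In the brightest quartile 114 other probes were as high as A_51_P480982 in wild-type mice and 860 in heterozygous mice. The double difference, diet change in heterozygotes less that in wild-type mice, was -0.30 for the brightest probe and -0.23 and -0.31 for the others. Repeated spots give this double difference an SD of 0.10 in the brightest quartile and 0.17 in the next. In the brightest quartile 598 other probes had a double difference as low as that of A_51_P480982. In the next quartile, of 10523 probes, 1727 others were as low as A_55_P2502721 and 1048 as low as A_55_P2728133. The 5th percentiles were -0.31 and -0.43 in these quartiles, and no Glo1 probe lay below that of its own quartile. The difference itself was not tested, as 1 array a group leaves no residual.

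**Figure D2:**
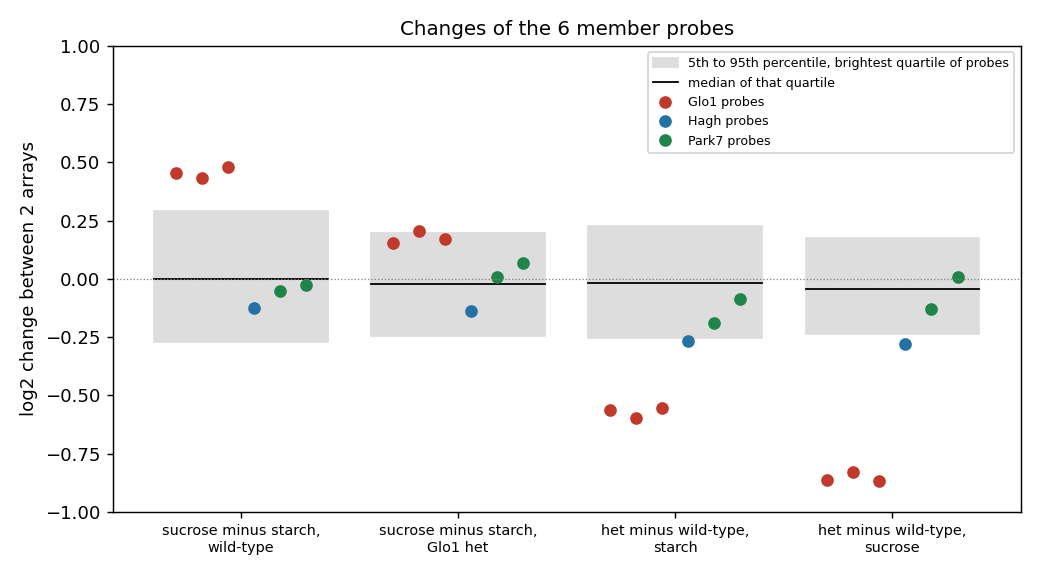
Log2 change of each member probe (points, coloured by gene) in 4 comparisons of single arrays; grey boxes run from the 5th to the 95th percentile of the 10524 probes of the brightest quartile and black lines are their medians. All 3 Glo1 probes, of which 2 belong to the next quartile, lie outside the box in both genotype comparisons and for diet in wild-type mice. For diet in heterozygous mice A_55_P2502721, at 0.21, lies just above the box. It belongs to the next quartile, whose 95th percentile is 0.32 there. The Hagh probe lies just below the box in both genotype comparisons.

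Hagh, the next enzyme of the pathway, was lower on the heterozygous arrays too, by less than for Glo1. Its level was 9.12 (starch) and 8.36 (sucrose) in wild types, against 7.58 (starch) and 6.88 (sucrose) in heterozygotes. Both wild-type arrays were above both heterozygous ones. The genotype change was -0.27 on starch and -0.28 on sucrose, larger in size than the SD of repeated spots and short of 0.32. Of the brightest quartile, 455 other probes were as low on starch and 298 on sucrose, where the medians of that quartile were -0.02 and -0.05. The diet change of Hagh was -0.13 in wild-type and -0.14 in heterozygous mice, so its direction with diet was opposite to that of Glo1. Being lower on sucrose in both genotypes was common, at 35.4% of the brightest quartile. The heterozygous sucrose array, which differs from the wild-type starch array in both factors, had a Hagh change of -0.41 against it. Hagh rested on a single probe, so no second probe bears on these values.

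Park7 differed least across the arrays of the 3 genes. The level of A_55_P2141429 was 19.6 (starch) and 19.0 (sucrose) in wild types, against 17.2 (starch) and 17.3 (sucrose) in heterozygotes. The level of A_55_P1981550 was 11.3, 11.1, 10.6 and 11.1 in the same order. The wild-type arrays lay above the heterozygous ones for the former probe only, and for the latter the heterozygous sucrose array lay between the wild-type arrays. The genotype change was -0.19 on starch and -0.13 on sucrose for the brighter probe, and -0.09 and 0.01 for the other. Under quantile normalisation the brighter probe gave -0.10 and -0.05. The diet changes of both probes lay between -0.05 and 0.07, within the SD of repeated spots, and that of the brighter probe changed sign between normalisations in both genotypes. The span over the 4 arrays was 0.09 for A_55_P1981550, and 90.4% of the brightest quartile had a wider one. For A_55_P2141429 the span was 0.19, which 51.9% exceeded, whereas 8.32% exceeded that of Hagh and 0.437% that of the brightest Glo1 probe.

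An additive fit of diet and genotype over all 42094 probes with limma, which takes the interaction as error and has 1 residual degree of freedom, called none of the 6 probes. The brightest Glo1 probe had a genotype effect of -0.71 (SE 0.12) with a limma adjusted p of 0.733, lower in both of the 2 diet pairs. Its diet effect was 0.30 (SE 0.12) with a limma adjusted p of 0.592, higher in both of the 2 genotypes. The Hagh effects were -0.27 for genotype (limma adjusted p = 0.733) and -0.13 for diet (limma adjusted p = 0.709), both with an SE of 0.09. For the brighter Park7 probe they were -0.16 (limma adjusted p = 0.734) and -0.02 (limma adjusted p = 0.958). The fit called 0 of all probes (0%) for genotype at an adjusted p under 0.05, where 2704 (6.42%) had an unadjusted p under 0.05, and 0 for diet, where 3704 (8.8%) did; with normexp background correction limma called 28 probes for diet and 0 for genotype.

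The arrays also differed in markers of neighbouring tissue, and these values stand beside the Glo1 and Hagh results. In a bulk sample, fewer cells of a type and less RNA per cell cannot be told apart. All 7 cortical excitatory neuron markers were well above background on every array, with a summed level of 26.0 to 32.6 that was highest on the wild-type sucrose array. Tbr1, at 13.5 to 18.5, made up the largest part of this sum. Slc17a7 and Neurod6 were instead highest on the heterozygous sucrose array, at 4.68 and 3.28 against 4.44 and 2.35 on the wild-type sucrose array. All 8 choroid plexus markers, Ttr among them, were higher by 0.32 or more on the heterozygous sucrose array than on either array that differs from it in 1 factor, and their summed level was 69.9 there and 0.861 to 2.13 on the others; 6 of the 8 were also higher by that much on sucrose in wild-type mice, where Aqp1 was lower by -2.11. Between genotypes on starch the choroid plexus markers went both ways, with Ttr at -1.35, Folr1 at -1.12 and Clic6 at 1.23. The summed level of the 8 striatum markers was 31.6 and 27.5 on the wild-type sucrose and heterozygous starch arrays and at most 16.4 on the other arrays. The 6 blood markers summed to between 76.4 and 164, lowest on the wild-type sucrose array, and the 4 melanocyte markers to 0.225 and 0.193 on the wild-type arrays and 1.40 and 0.727 on the heterozygous arrays. All 4 melanocyte markers were higher in heterozygous mice on both diets. The summed levels of the interneuron (82.8 to 94.8), astrocyte (39.5 to 42.4), oligodendrocyte (77.5 to 85.9) and microglia (28.2 to 31.2) lists varied less than that of the cortical excitatory neurons, though single markers moved more than their sums. Gfap, an astrocyte marker, changed by -0.68 for diet in wild types and by 1.16 for genotype on sucrose. The microglia markers C1qa and C1qb changed by -0.78 and -0.49 for diet in wild types and by -0.66 and -0.51 for genotype on starch, and the 4 others stayed within -0.18 and 0.13 in those comparisons. The endothelium list summed to 23.7 to 31.9, and 3 of its 6 markers, Cldn5, Ly6c1 and Pecam1, were lower by 0.32 or more on sucrose in wild-type mice, while Flt1, Kdr and Slco1a4 changed by 0.06 to 0.10; 10.3% of all genes were lower by that much. The part of any of these in the member values was not tested.

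**Figure D3:**
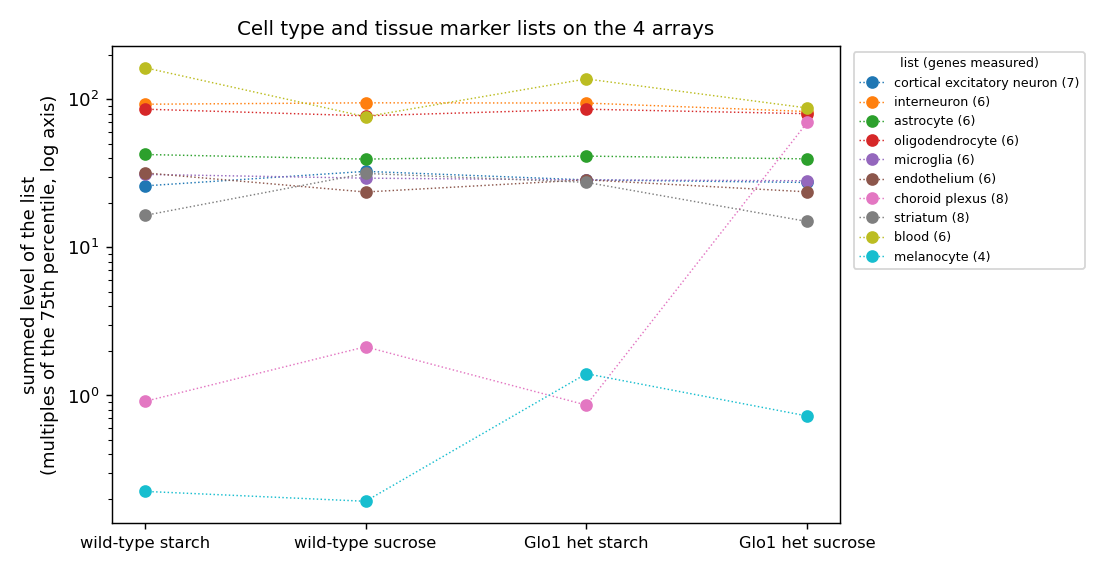
Summed level of each marker list (log axis, multiples of the array's 75th percentile) on the 4 arrays, with 1 point per list and array joined by dotted lines; the number of genes measured is in the key. The choroid plexus list stands out on the heterozygous sucrose array at 69.9, and the striatum list is highest at 31.6 on the wild-type sucrose array.

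Genes whose pattern over the 4 arrays was closest to that of each member were sought among 13032 genes brighter than the median probe, by Euclidean distance between the 4 log2 values after subtraction of each gene's mean. The nearest to Glo1 were Tcap, a sarcomere protein gene, at a distance of 0.28, Rprm, a cell cycle arrest gene, at 0.29, Gm10334 at 0.35 and Galnt15, a mucin-type glycosyltransferase gene, at 0.36. The Glo1 span over the arrays was 1.02, and Tcap had the same order of arrays as Glo1. For Rprm the levels were 3.29 and 3.55 on the wild-type arrays and 2.26 and 2.24 on the heterozygous arrays, on starch and sucrose. Hagh had neighbours at 0.01 to 0.04 (Gm36802, Olfr933, Kcnv1 and Trim71). Park7 had neighbours at about 0.01, led by Dnajc19, part of the mitochondrial protein import motor, and followed by Slbp, Rbm7 and Ddx41. These distances over 4 arrays are a description.

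The genes directly beside Glo1 on chromosome 17 were dim. 0710001D07Rik, whose probe starts 15953 bases from the brightest Glo1 probe, had levels of 0.157 and 0.174 on the wild-type and 0.109 and 0.123 on the heterozygous arrays, on starch and sucrose, with genotype changes of -0.52 and -0.49. On the other side of Glo1, 1700097N02Rik changed by -0.49 on starch and -0.09 on sucrose, and beyond it Dnah8 changed by -0.26 and -0.11. Gm6402, beyond 0710001D07Rik, changed by 0.11 and 0.22. Of 154 genes measured between Hagh and Glo1, 20 were lower by 0.32 or more in heterozygous mice on starch (13.0%, against 9.03% of all genes) and 10 on sucrose (6.49%, against 5.72%). In the other direction 7 of the 154 were higher by that much on starch, where 5.86% of all genes were. On sucrose 11 were, where 7.91% of all genes were. The medians were -0.05 on both diets beside -0.02 over all genes.

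The wider pathway was read from 7 lists holding 49 genes, of which 48 were measured on all arrays by their brightest probe. In wild-type mice 3 of the 48 were higher by 0.32 or more on sucrose (8.96% of all genes were) and 3 were lower (10.3% of all). In heterozygous mice 3 were higher (9.29% of all) and 1 lower (6.46%). Between genotypes on starch none was higher (5.86% of all) and 2 were lower (9.03%), and on sucrose 4 were higher (7.91%) and 2 lower (5.72%). Each count is between 0 and 4 of 48, near or below the share over all genes. The medians over the 48 genes were 0.01 and 0.02 for diet in wild-type and heterozygous mice, and -0.05 on both diets for genotype. The first turned negative with the mean of a gene's probes, the next with median scaling and that for genotype on starch positive with cyclic loess. They stood beside all-gene medians of 0.00, 0.00, -0.02 and -0.02.

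**Figure D4:**
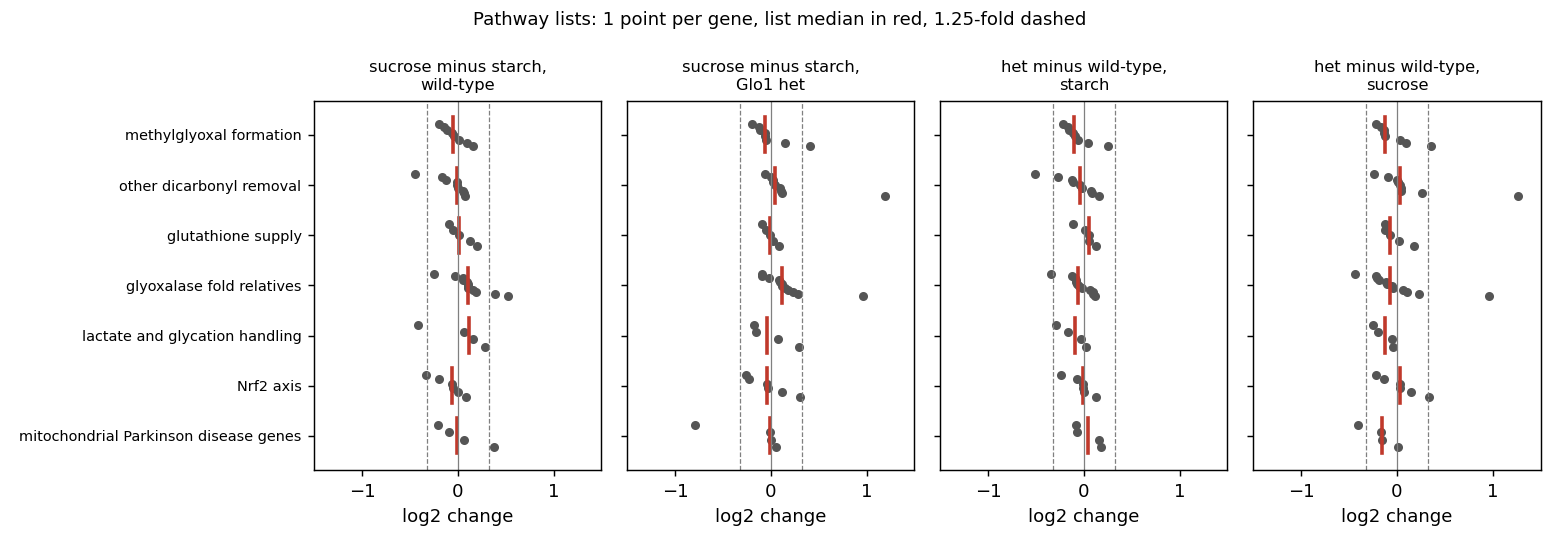
Log2 change of every measured gene of the 7 pathway lists (1 point per gene by its brightest probe) in 4 comparisons of single arrays; red ticks are list medians and dashed lines mark a change of 0.32 in either direction. Most points lie between the dashed lines, and Akr1b8 (1.19 and 1.27) and Hpdl (0.96 and 0.97) stand apart in both comparisons that use the heterozygous sucrose array as the first term.

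Of the 8 genes listed around the formation of methylglyoxal, not all of which form it, the glycolytic enzymes Gapdh, Aldoa and Aldoc had genotype changes of -0.17 to -0.09 with their brightest probes. The 6 other Gapdh probes gave -0.21 to 0.03 and the other Aldoc probes -0.13 to -0.05. Tpi1, whose substrates are the triose phosphates that release methylglyoxal, had levels between 32.0 and 35.2 on the 4 arrays with its brightest probe. Its 3 other probes were lower for genotype on starch by more, from -0.36 to -0.28, so the probes disagreed in size. By their brightest probes none of the list's 8 genes reached 0.32 for diet in wild-type mice or for genotype on starch, and the list medians for genotype were -0.11 and -0.13 on starch and sucrose. Aoc3, an amine oxidase that makes methylglyoxal from aminoacetone, reached it on the heterozygous sucrose array (0.41 for diet and 0.35 for genotype) at levels of at most 0.136, and its other probe gave 0.02 and 0.04 there but 0.47 for wild-type diet and 0.49 for genotype on starch, so the probes disagreed. Under the lowest alternative the brightest probe gave 0.28 for diet and 0.23 for genotype on the heterozygous sucrose array. Gcat, a mitochondrial enzyme of threonine breakdown, was below 0 in all 4 comparisons, from -0.22 to -0.19.

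Of 9 genes of other enzymes that reduce or oxidise dicarbonyls, Akr1b8, an aldo-keto reductase, was the one past 2-fold, as 1.29% of all genes were higher for diet in heterozygous mice and 1.37% for genotype on sucrose. Its levels were 0.629 and 0.628 in wild-type mice and 0.662 and 1.51 in heterozygous mice on starch and sucrose, so it was high on the heterozygous sucrose array alone, the array with the high choroid plexus markers. Aldh2, the mitochondrial aldehyde dehydrogenase, was higher on the wild-type starch array (4.70) than on the others (3.31 to 3.56), with a diet change of -0.45 in wild-type mice and a genotype change of -0.51 on starch. Its 3 other probes were lower too in both of these comparisons, but by between -1.29 and -0.03. Akr1a1 and Akr1b3, reductases of this list, stayed within -0.12 and 0.10 in the 4 comparisons with their brightest probes, and the other Akr1b3 probe gave -0.17 for genotype on starch.

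The 5 genes of glutathione supply, which both glyoxalases depend on, gave no change of 0.32 or more with their brightest probes. Gclc, the catalytic subunit of the rate-limiting ligase, had its widest change at 0.20 for diet in wild-type mice, and Gss, glutathione synthetase, at 0.18 for genotype on sucrose, where its other probe gave 0.32. For Slc7a11, the cystine transporter, a dimmer probe gave 0.50 for genotype on starch and 0.35 on sucrose, where the brightest gave 0.13 and 0.02 and another -0.04 and -0.19. The list medians lay between -0.07 and 0.05.

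Among 13 genes related to the members by fold, Hpd was not well above background on all arrays and 12 were measured. Haghl, a gene similar to Hagh, had levels of 10.8 (starch) and 14.2 (sucrose) in wild types and 11.4 (starch) and 12.3 (sucrose) in heterozygotes. It was higher on sucrose in wild-type mice by 0.39 and, with its other probe, 0.34. It shared with Glo1 the highest level on the wild-type sucrose array, as did Glod4, Glod5, Pnkd, Mblac1, Pddc1 and D10Jhu81e of this list. The genotype changes of Haghl were 0.07 on starch and -0.20 on sucrose. Hpdl, related to a tyrosine catabolic dioxygenase, had levels of 0.241, 0.260, 0.261 and 0.507 in the same order and was again high on the heterozygous sucrose array alone. Glod5, at levels under 0.08, was higher on sucrose in wild-type mice by 0.52 and changed by -0.43 for genotype on sucrose. Ethe1, a mitochondrial persulfide dioxygenase, was lower in heterozygous mice by -0.35 on starch. Glod4 and the DJ-1 relative D10Jhu81e stayed within -0.08 and 0.10 with their brightest probes, and the other Glod4 probe gave -0.26 for genotype on starch and 0.17 for diet in heterozygous mice. The list medians were 0.10 and 0.12 for diet and -0.07 on both diets for genotype.

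Of 4 genes that handle D-lactate or glycated proteins, Ager, the receptor for advanced glycation end products, was lower on sucrose in wild-type mice by -0.42 with its brightest probe. Its 5 other probes that were well above background on all arrays gave between -0.19 and 0.21, so the probes disagreed. Ldhd, the D-lactate dehydrogenase that takes up the end product of the pathway, changed by 0.28 and 0.07 for diet and by 0.02 and -0.19 for genotype, and Fn3krp had levels under 0.05. The list medians were 0.11 and -0.05 for diet and -0.10 and -0.12 for genotype.

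Of 6 genes of the Nrf2 axis, a stress response that DJ-1 has been linked to, Nfe2l2, which encodes Nrf2, had diet changes of -0.34 in wild-type mice and -0.23 in heterozygotes with its brightest probe, and its other probe gave 0.07 and 0.01. Nqo1, a target of Nrf2, was higher on the heterozygous sucrose array by 0.30 for diet and 0.34 for genotype, at levels of at most 0.162. Under the lowest alternative these were 0.22 and 0.28. Srxn1, at levels of 9.87 to 11.8, went the other way there, by -0.26 for diet and -0.22 for genotype. Hmox1, Keap1 and Txnrd1 lay between -0.13 and 0.14 in these comparisons with their brightest probes. The list medians lay between -0.06 and 0.04. Of 4 other Parkinson disease genes, Lrrk2 was lower on the heterozygous sucrose array, by -0.79 for diet and -0.41 for genotype, at levels of 3.55 and 3.07 in wild-type and 4.01 and 2.32 in heterozygous mice. That array also had the lowest summed striatum markers, and their part in the Lrrk2 values was not tested. Pink1, a kinase of mitophagy, stayed within -0.15 and 0.07 with its brightest probe, and its other probe gave -0.24 for genotype on starch and 0.13 for diet in heterozygous mice. The list medians were -0.01 and -0.01 for diet and 0.05 and -0.16 for genotype.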

How the data were processed

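Total RNA of 3 samples of a group was pooled, 200 ng was labelled with Cy3, and the pool was hybridised to 1 array, per the labels' protocols. The 4 arrays lay at 4 positions of 1 slide, per the file headers, so slide position cannot be told apart from group. The deposited intensity values came from Agilent Feature Extraction 11.5.1.1, per the submitters' processing notes; background subtraction, detrending within the array and surrogates for low signals were set, per the file headers, with no step between arrays. The deposited value table holds a ratio per spot, found here to be the processed signal over the array's 75th percentile.

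Here each processed signal was divided by the 75th percentile of its own array (control spots aside) and log2 taken. Outlier-marked spots were dropped, and repeated spots of a probe averaged. A probe had to be well above background on all 4 arrays, which 42094 of 56605 were. Each of 20655 genes was represented by its brightest probe. Of the 27248 gene names in the files, 23662 were symbols in the RefSeq table of assembly GRCm38.p6 and 1112 were older symbols; the files' names were kept.

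Changes are differences of single arrays with no p-value. The additive fit used limma 3.58.1 (lmFit and eBayes, R 4.3.3) with Benjamini-Hochberg adjustment and was tested on simulated data. Named genes were the members, list genes past 1.5-fold in a comparison of diet or genotype, the 2 with the widest range in each list, and the 4 genes nearest each member; the others were named after their values were seen. Some list genes are not reported here by name. Alternatives were normexp (offset 50), quantile, cyclic loess and median scaling, no background subtraction, the value table, outlier spots kept, the mean of a gene's probes, other filters and a trended prior variance. The members and lists were chosen with earlier results of these data known.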

Additional observations from a re-analysis of the deposited data

How the results depend on the processing

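Under 8 alternatives the genotype change of Glo1 stayed between -0.58 and -0.54 on starch and between -0.91 and -0.83 on sucrose, its diet change between 0.44 and 0.46 in wild-type and between 0.13 and 0.18 in heterozygous mice, and the double difference between -0.33 and -0.27. The genotype change of Hagh stayed between -0.28 and -0.22 on starch and between -0.33 and -0.23 on sucrose, where median scaling took it past 0.32 in size, and its change between heterozygous sucrose and wild-type starch became -0.33 under cyclic loess. Park7 was most open to the processing: under quantile normalisation its genotype changes became -0.10 on starch and -0.052 on sucrose and its change between heterozygous sucrose and wild-type starch -0.040, under cyclic loess -0.12 on starch and -0.069 for the last, and the mean of its probes gave -0.10 for the last. Its additive diet effect turned to 0.034 under quantile normalisation and 0.022 under cyclic loess. The cause was not tested. The limma fit called 28 probes for diet under normexp and 1 with a trended prior variance, and for the brightest Glo1 probe the limma adjusted p ran from 0.478 to 0.789 for genotype and from 0.330 to 0.814 for diet.

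Of the pathway genes, the count lower by 0.32 or more on sucrose in wild-type mice became 1 with the mean of a gene's probes, the count lower for genotype on starch became 1 under normexp and without background subtraction, and the count higher for genotype on sucrose became 2 under these and median scaling. The counts of all probes past a fold moved most with the filter on dim probes. At 0.32 or more in either direction, 8805 probes for diet in wild-type mice became 15824 without a filter and 2293 above the median signal, and the ranges were 1490 to 12828 for diet in heterozygous mice, 1814 to 14996 for genotype on starch and 1128 to 12666 on sucrose. No library could be left out of a group, as each had 1 array. For the same reason replicates could not be paired between groups. The additive fit compares genotype within diet and diet within genotype. The number of arrays limits the precision, and changes under about 0.07 in the brightest quartile are within the SD of repeated spots alone.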
